A study of Mus musculus with 6 samples.

Results

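The STAT transcription factors and the JAK kinases that activate them were examined in fibroblasts sorted from mouse synovium, the tissue that lines the joint. They were chosen by gene symbol as 9 genes, Stat2, Stat3, Stat4, Stat5a, Stat5b, Stat6, Jak1, Jak2 and Tyk2. Of these, 8 were among the 24348 genes of the count table, 5 STAT genes and 3 JAK genes. Stat4 and the other family members were not analysed here. The libraries came from adult wild-type C57BL/6 mice (C57BL/6J background per the study's methods), with 3 for mice injected intravenously with immune complexes (IC) and 3 for mice that received vehicle. Per the study's methods, IC were ovalbumin bound by rabbit antibodies raised against it. The time from injection to collection, the sort gate for fibroblasts and the number of mice behind each library are not given in the sources used here. P values therefore measure only the spread between these libraries, which may be technical.

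Cytokine receptors of this pathway have no enzyme activity of their own and rely on JAK kinases bound to their tails. Ligand binding brings the kinases together, they phosphorylate the receptor and then a STAT protein, and STAT dimers move to the nucleus and bind DNA. Different cytokines use different STATs, with STAT2 serving type I interferons, STAT3 the IL-6 family, STAT5A and STAT5B growth hormone, prolactin and several interleukins, and STAT6 IL-4 and IL-13. In the joint the pathway is known as the target of the JAK inhibitors used in rheumatoid arthritis. STAT activity depends on phosphorylation, which RNA sequencing does not measure, so every value here is an amount of transcript. Several STAT genes are themselves induced by the cytokines that activate their products.

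Total counts ranged from 40114331 to 56714304 per library. All 10 fibroblast markers were in the table, with a summed level of 33735 to 34894 CPM, the count scaled to the library total after IC and 32978 to 39687 after vehicle. The 9 macrophage markers found summed to 33.9 to 52.2 CPM after IC and 42.1 to 53.9 after vehicle, and the 5 markers of T and NK cells to 1.15 to 1.48 and 0.958 to 1.96. B cell markers, 2 of 6 found, summed to 2.65 to 3.69 CPM after IC and 6.53 to 8.90 after vehicle, and neutrophil markers, 3 of 7 found, to 0.344 to 0.851 and 0.423 to 0.556. Of the defining markers, Adgre1, Cd3e and Ptprc were not analysed here. Endothelial markers, 8 of 8 found, summed to 87.4 to 144.5 CPM after IC and 140.6 to 197.6 after vehicle, and skeletal muscle markers, 14 of 14 found, to 17.6 to 45.6 and 46.4 to 105. DESeq2 called 2 endothelial, 4 muscle and 1 of the B cell markers lower after IC at an adjusted p under 0.05. Among all genes tested it called 1.07% lower and 1.03% higher. By edgeR's quasi-likelihood test, 0 endothelial, muscle, B cell or fibroblast markers were called. Of the 10 fibroblast markers DESeq2 called 1 higher and 1 lower. Prg4 of the synovial lining was higher (0.94 on the log2 scale, adjusted p 0.0103) and Lum lower (−0.36, adjusted p 0.00250). Of the 10, 2 had a log2 fold change above 0, against 49.6% of all genes tested. An unadjusted DESeq2 p under 0.05 was found for 6, against 9.8% of all genes. The median log2 fold change of the 10 was −0.16, against −0.0019 for all genes. The part of the fibroblast markers in the STAT and JAK results was not tested.

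After IC, Stat2 transcript was 1.45-fold higher, and Stat2 was the single gene among the 8 that passed the test across all genes. Stat3 was higher and Stat5a lower by smaller amounts that missed the threshold, and the intervals of Stat5b, Stat6, Jak1, Jak2 and Tyk2 from all 6 libraries included no change. By the DESeq2 Wald test at an adjusted p under 0.05, 1 of 8 genes was called, where 2.1% of the 19925 genes tested were called. At an unadjusted p under 0.05 there were 3 of the 8, Stat2, Stat3 and Stat5a, against 9.8% of all genes tested. IC and vehicle libraries did not overlap for 3 of the 8 genes, Stat2 and Jak1 with IC higher and Stat5a with IC lower, against 15.8% of all genes tested (8.09% with IC higher and 7.67% with IC lower). With the quasi-likelihood test of edgeR none of the 8 was called, where 0.186% of all genes were, and the same 3 genes had an unadjusted p under 0.05. In bulk samples, fewer cells of a type and less RNA per cell cannot be told apart.

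**Figure D1:**
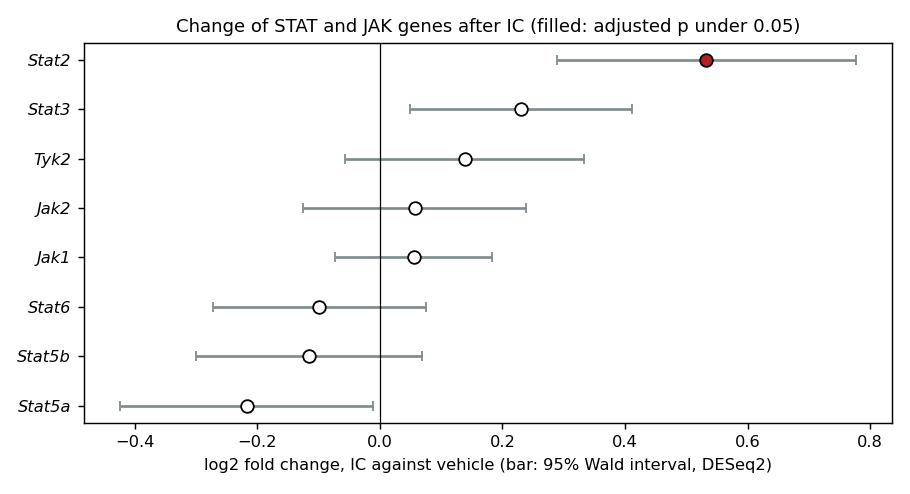
Log2 fold change of each STAT and JAK gene, IC against vehicle, with its 95% Wald interval from DESeq2 (n = 3 libraries per group). Stat2 at 0.53 is the filled point, with an adjusted p under 0.05, and the intervals of Stat5b, Stat6, Jak1, Jak2 and Tyk2 cross 0.

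STAT2 carries the type I interferon signal into the nucleus together with IRF9. Its gene lies at chr10:128270559-128292849 on the plus strand (GENCODE M21, GRCm38). IC replicates 1, 2 and 3 had 7418, 6651 and 9854 normalized counts of Stat2, which are counts divided by the library's size factor. Vehicle replicates 1, 2 and 3 had 5695, 5064 and 5784. Every IC library lay above every vehicle library, and IC replicate 3 stood well above the other two. The IC mean was 7975 ± 1673 and the vehicle mean 5514 ± 392 (SD over 3 libraries). By DESeq2 the log2 fold change was 0.53 with a standard error (SE) of 0.124, a fold change of 1.45 with a 95% interval of 1.22 to 1.71, and the adjusted p was 0.00197. By edgeR the adjusted p was 0.137 at an unadjusted p of 0.00173, and by limma-voom the adjusted p was 0.122.

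The sequence before the Stat2 start is shown because STAT complexes act through short DNA motifs, and among the 8 genes the promoter of Stat2 was the one that held any of those searched. Promoters were taken from RefSeq (GRCm38.p6), as 250 bases before to 50 bases after each annotated start, and searched on both strands for the core of the interferon-stimulated response element, GAAANNGAAA, and for the STAT sites TTCNNNGAA and TTCNNNNGAA. These letters occur in 3.44%, 8.3% and 6.95% of all 32851 promoters in that order. The share of promoters with any of these motifs was not computed. A match in Stat2 alone among the 8 genes is therefore not read as more than the background. In the Stat2 promoter, TTTCAGTTTC, the element core read on the opposite strand, lies at −222 to −213 from the RefSeq start, and TTCCCTAGAA, a STAT site with a spacer of 4 bases, at −210 to −201. The 250 bases before the start, at chr10:128270248-128270497 on the plus strand, are given 5′ to 3′ with these matches in capitals. The same stretch before Stat3, at chr11:100939541-100939790 on the minus strand, is given beside it, since Stat3 had the next largest fold change and held no match. A match is a description of the letters, and binding was not measured.
Stat2: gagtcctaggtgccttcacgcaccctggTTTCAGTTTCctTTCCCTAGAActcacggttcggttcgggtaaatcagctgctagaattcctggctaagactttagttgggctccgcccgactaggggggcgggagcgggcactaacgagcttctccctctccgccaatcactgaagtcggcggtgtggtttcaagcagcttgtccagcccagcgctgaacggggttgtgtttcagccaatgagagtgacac
Stat3: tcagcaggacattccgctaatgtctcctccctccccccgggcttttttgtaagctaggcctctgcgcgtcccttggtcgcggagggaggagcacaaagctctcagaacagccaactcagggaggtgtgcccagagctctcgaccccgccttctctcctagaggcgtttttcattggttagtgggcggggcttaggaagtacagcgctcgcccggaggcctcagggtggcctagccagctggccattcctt

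The size of the Stat2 difference depended on which libraries were used. Without IC replicate 3 its log2 fold change was 0.35 (DESeq2 adjusted p = 0.0296), and without vehicle replicate 2, the library lowest in Stat2, it was 0.48 with an adjusted p of 0.0674, which misses the threshold. The other fits that each left out 1 library kept the call. IC replicate 3, highest in Stat2, also had the lowest summed level of skeletal muscle markers, 17.6 CPM against 45.6 and 32.0 in IC replicates 1 and 2. Vehicle replicate 2, lowest in Stat2, had the highest, 105 CPM against 82.3 and 46.4 in vehicle replicates 1 and 3. Not every library followed this order. IC replicate 2 was below IC replicate 1 in muscle markers and also in Stat2, at 6651 against 7418 normalized counts. Vehicle replicates 1 and 3 were close in Stat2, at 5695 and 5784, though they differed in muscle markers. With a term for the skeletal muscle score in DESeq2, the log2 fold change of Stat2 was 0.16 (SE 0.194) and its adjusted p 0.9998. The summed muscle markers did not overlap between the groups, at 17.6 to 45.6 CPM after IC and 46.4 to 105 after vehicle. By these sums, muscle content and treatment cannot be told apart in this design, and every fit with this term is read with this limit. The term in the fit is the scaled mean of log2 CPM over the markers, whose values by library are not given here. Summed endothelial markers were lowest in IC replicate 3, at 87.4 CPM. Among the vehicle libraries they were lowest in replicate 2, at 140.6 CPM, the library that was also lowest in Stat2. IC replicate 2 lay above it at 144.5 CPM, so the groups overlapped in this sum. The endothelial score as a term was an alternative added once the data had been seen. With it the Stat2 log2 fold change was 0.32, with a DESeq2 adjusted p of 0.244.

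**Figure D2:**
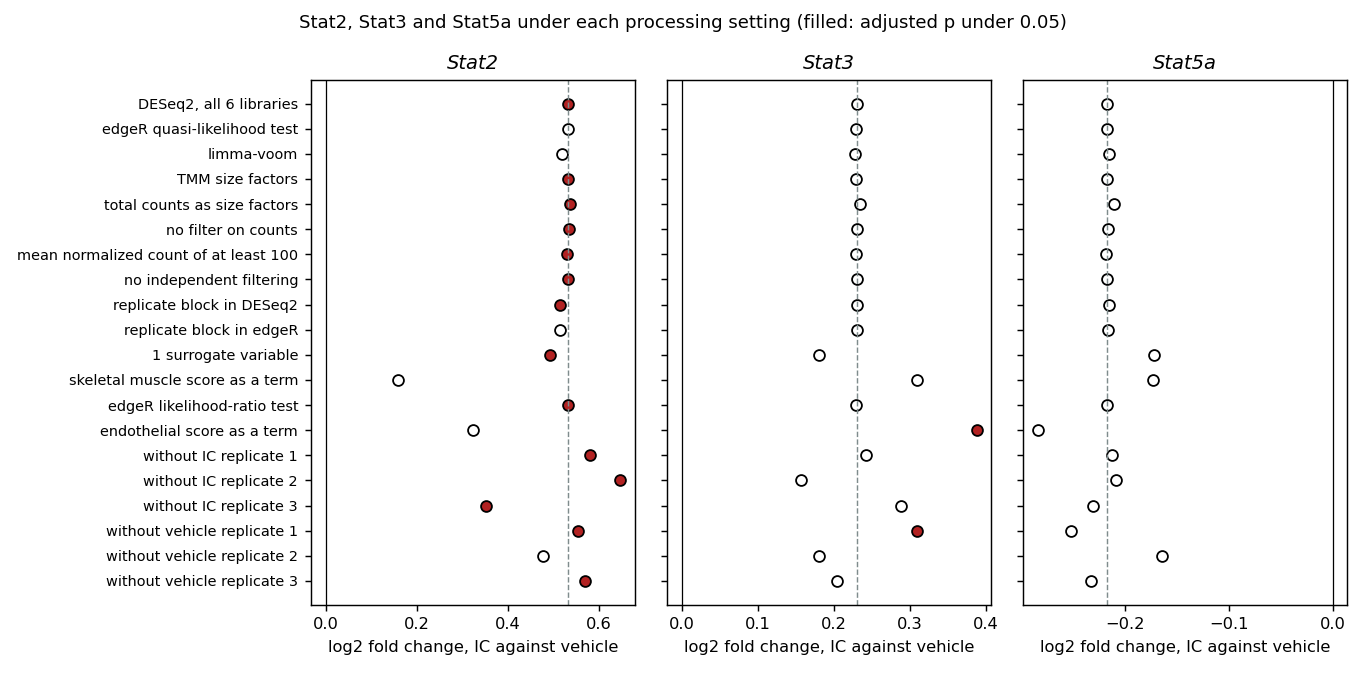
Log2 fold change (x axis) of Stat2, Stat3 and Stat5a under each processing setting (y axis), filled where the adjusted p was under 0.05, with a dashed line at the value from all 6 libraries by DESeq2. The Stat2 points stay above 0, are smallest with the skeletal muscle score term (0.16), and are open with edgeR's quasi-likelihood test, limma-voom, edgeR with the replicate block, either score as a term and without vehicle replicate 2.

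STAT3 is the main factor of IL-6 family signalling. The Stat3 gene lies at chr11:100885098-100939540 on the minus strand. Its normalized counts were 24227, 27095 and 22627 in IC replicates 1 to 3 and 23291, 19508 and 20235 in vehicle replicates 1 to 3. The groups overlapped, since vehicle replicate 1 lay above IC replicate 3, and the library highest in Stat2 was the lowest of the IC libraries in Stat3. Group means were 24650 ± 2264 for IC and 21011 ± 2007 for vehicle (SD over 3 libraries), and the log2 fold change was 0.23 (SE 0.0923, 95% interval 0.05 to 0.41). Stat3 was not called, with adjusted p values of 0.216 (DESeq2) and 0.462 (edgeR). Leaving out vehicle replicate 1 gave 0.31 and an adjusted p of 0.0162 by DESeq2, and the endothelial score as a term gave 0.39 and 0.00125, so Stat3 passed the threshold in these fits.

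STAT5A and STAT5B are close relatives that share most of their cytokines. Their genes are neighbours of Stat3, with Stat5b at chr11:100780731-100850724 on the minus strand, Stat5a at chr11:100859351-100885169 on the plus strand, 8626 bp between them, and the ends of Stat5a and Stat3 overlapping by 72 bp on opposite strands. Of all 50-base windows in the Stat5a and Stat5b transcripts, 10.77% and 11.77% occur in the other gene as well, so the counts of both genes are uncertain where reads fall in such windows. No such window was shared by the other 6 genes.

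Stat5a had 1589, 1581 and 1633 normalized counts in IC replicates 1 to 3 and 1775, 1990 and 1818 in vehicle replicates 1 to 3. All IC libraries lay below all vehicle libraries and within 1.73% of each other as a coefficient of variation. The log2 fold change was −0.22 (SE 0.105, 95% interval −0.42 to −0.01), with adjusted p values of 0.386 (DESeq2) and 0.429 (edgeR), so Stat5a was not called. Stat5b had 5261, 5136 and 5312 normalized counts after IC and 5004, 5871 and 6156 after vehicle. The groups overlapped, with vehicle replicate 1 the lowest of all. Its log2 fold change of −0.12 (SE 0.0942, 95% interval −0.30 to 0.07) had an adjusted p of 0.756 by DESeq2. Without vehicle replicate 1 it was −0.20 (unadjusted p from the DESeq2 fit 0.00924, adjusted p 0.128), and without vehicle replicate 3 it was −0.054.

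STAT6 transmits IL-4 and IL-13 signals. Its gene is at chr10:127642986-127660957 on the plus strand, 609.6 kb from Stat2 with 26 protein-coding genes between them. Stat6 had 6968, 6601 and 6970 normalized counts after IC and 6568, 7748 and 7678 after vehicle. Vehicle replicate 1 was again lowest, so the groups overlapped. The log2 fold change was −0.10 (SE 0.0884, 95% interval −0.27 to 0.07) with an adjusted p of 0.807 by DESeq2. Without vehicle replicate 1 it was −0.17 (unadjusted p from the DESeq2 fit 0.0190, adjusted p 0.201), and without vehicle replicate 2 it was −0.055.

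**Figure D3:**
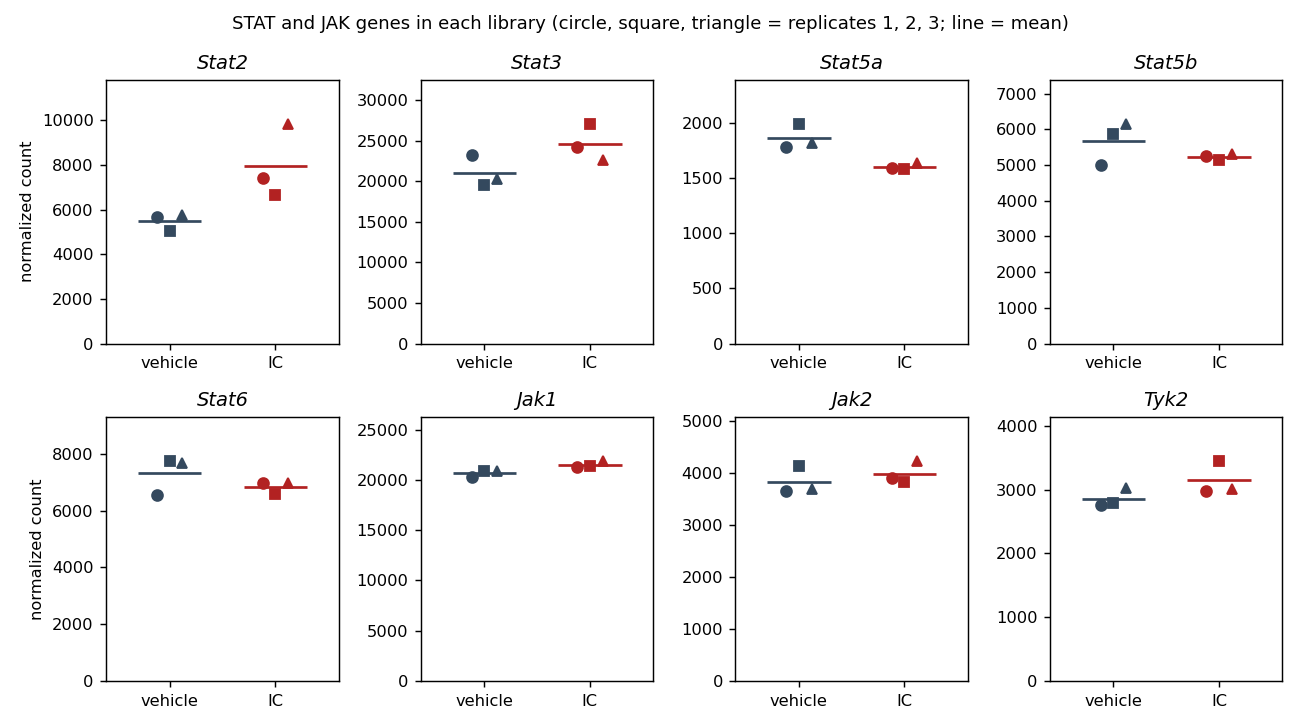
Normalized count of each STAT and JAK gene in each library (y axes start at 0; circle, square and triangle are replicates 1, 2 and 3, and the line is the group mean, n = 3). The Stat2 values after IC (6651 to 9854) lie above those after vehicle (5064 to 5784), the Stat5a values after IC (1581 to 1633) lie below those after vehicle (1775 to 1990), and Stat3, Stat5b, Stat6, Jak2 and Tyk2 overlap.

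JAK1 serves the interferon receptors, the gp130 receptors and the common gamma chain receptors. Jak1 (chr4:101152367-101265282, minus strand) had 21341, 21372 and 21890 normalized counts after IC and 20349, 20930 and 20881 after vehicle. The groups did not overlap, with every IC library higher, but they were close. The log2 fold change was 0.06 (SE 0.0654, 95% interval −0.07 to 0.18) with an adjusted p of 0.876 by DESeq2, so the interval ends at 0.18.

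JAK2 serves growth hormone, prolactin and erythropoietin receptors and takes part in IL-6 and interferon gamma signalling. Jak2 (chr19:29251828-29313080, plus strand) had 3902, 3828 and 4233 normalized counts after IC and 3666, 4146 and 3691 after vehicle. Vehicle replicate 2 lay among the IC libraries. Its log2 fold change of 0.06 (SE 0.0927, 95% interval −0.13 to 0.24) had an adjusted p of 0.926 by DESeq2.

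TYK2 pairs with JAK1 at the type I interferon receptor. Tyk2 (chr9:21104068-21131243, minus strand) had 2980, 3449 and 3012 normalized counts after IC and 2753, 2796 and 3031 after vehicle. IC replicate 2 was highest, and the other IC libraries overlapped with vehicle replicate 3. The log2 fold change was 0.14 (SE 0.0993, 95% interval −0.06 to 0.33) with an adjusted p of 0.701 by DESeq2. An antisense gene, 1700084C06Rik, shares 554 bp or 8.1% of the Tyk2 exons, and whether counting used strand is not given in the sources used here.

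Ratios of 2 genes inside a library do not depend on how libraries were scaled. An exact two-sided permutation test over 3 against 3 libraries cannot go below p = 0.1, so none of the 5 ratios could pass 0.05. The ratio of Stat2 to Stat6 counts was 1.06, 1.01 and 1.41 in IC replicates 1 to 3 and 0.867, 0.654 and 0.753 in vehicle replicates 1 to 3. These did not overlap, and the mean log2 ratio was higher by 0.61 after IC (exact permutation p = 0.1, 0.5 after Benjamini-Hochberg adjustment over the 5 ratios). The ratio of Stat2 to Stat3 overlapped, at 0.306, 0.246 and 0.436 after IC and 0.245, 0.260 and 0.286 after vehicle, a log2 difference of 0.28 (exact permutation p = 0.3, adjusted 0.625). That difference was 0.061 without IC replicate 3 and 0.47 without IC replicate 2. Differences in log2 ratio were −0.10 for Stat5a to Stat5b, 0.08 for Tyk2 to Jak1 and 0.0019 for Jak2 to Jak1, with exact permutation p of 0.4, 0.5 and 1, adjusted 0.625, 0.625 and 1. Without IC replicate 2 the Tyk2 to Jak1 difference was 0.0070, and leaving out vehicle replicate 1 or 3 gave −0.049 or −0.18 for Stat5a to Stat5b.

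To compare levels between genes, normalized counts were divided by the length of the gene's longest transcript in kilobases. Jak1 and Stat3 were the most abundant on this scale, at 4306 ± 108 and 3779 ± 457 per kilobase (mean ± SD over all 6 libraries), above 97.8% and 97.5% of 19631 genes with a length. Jak1 exceeded Stat3 in 5 of 6 libraries, so their order is not firm. Stat6 followed at 1878 ± 136 and Stat2 at 1534 ± 394. Stat6 exceeded Stat2 in 5 of 6 libraries, IC replicate 3 being the exception. By group, Stat6 and Stat2 stood at 1942 and 1254 per kilobase after vehicle and both at 1814 after IC, so their order in the pooled means does not hold after IC. Stat5b stood at 1047 ± 87.0, Jak2 at 778 ± 46.5, Tyk2 at 622 ± 51.2 and Stat5a, the lowest, at 437 ± 40.6 per kilobase, which was still above 70.7% of genes. From Stat2 down, each gene exceeded the next in 6 of 6 libraries on this scale. With the union of all exons as the length, Stat2 exceeded Stat5b in 4 of 6 libraries and Jak1 exceeded Stat3 in 6 of 6.

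**Figure D4:**
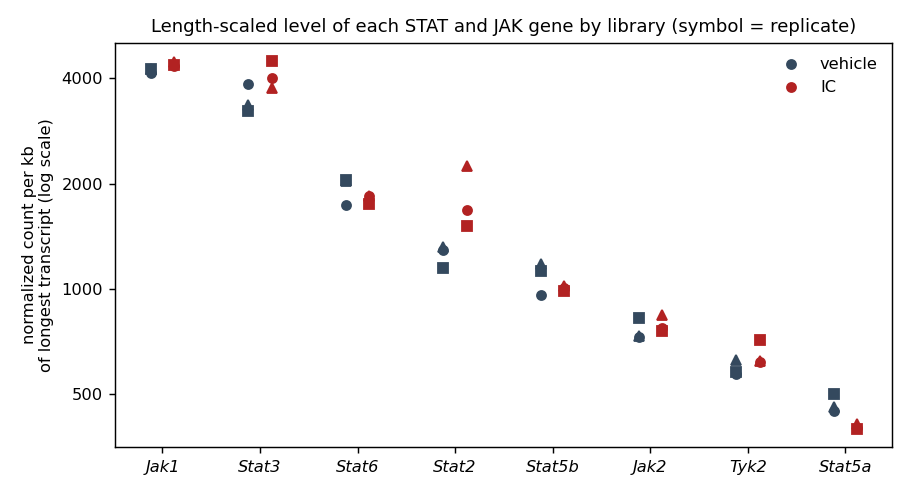
Normalized count per kilobase of the longest transcript (y axis, log scale) for each STAT and JAK gene in order of mean level, with vehicle at the left and IC at the right of each gene and the symbol giving the replicate. Jak1 and Stat3 are the highest, with means of 4306 and 3779, Stat5a is the lowest at 437, and the Stat2 values after IC reach the range of Stat6.

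The ligands, receptors and inhibitors around these genes are given from lists of pathway genes. Among 11 cytokine ligand genes tested, DESeq2 called 1 higher, Il6, and 0 lower. The called genes of all pathway lists are read against 1.03% of all genes tested called higher and 1.07% called lower. Il6, an activator of STAT3, had 9669, 8776 and 12711 normalized counts after IC and 8101, 6311 and 6940 after vehicle, a change of 0.55 on the log2 scale (SE 0.127) with adjusted p values of 0.00183 (DESeq2) and 0.152 (edgeR). Its groups did not overlap and IC replicate 3 was highest, as for Stat2. The Il6 call was lost without IC replicate 3 (0.37, adjusted p 0.0630 by DESeq2), vehicle replicate 2 (0.0759) or vehicle replicate 3 (0.0754).

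Among 24 receptor genes tested, 1 was called higher and 2 lower by DESeq2. Il4ra, the receptor chain through which IL-4 and IL-13 act on STAT6, had 25895, 20700 and 24246 normalized counts after IC and 35133, 40230 and 36741 after vehicle. The groups lay far apart, and the log2 fold change was −0.66 (SE 0.0922) with adjusted p values of 9.40e-10 (DESeq2) and 0.0227 (edgeR). Cntfr, the specific chain of the ciliary neurotrophic factor receptor, fell by 0.52 on the log2 scale (adjusted p 0.0130), a call kept without vehicle replicate 1 and lost without any other library (adjusted p up to 0.170). Lepr, the leptin receptor, rose by 0.29 (adjusted p 0.0496 by DESeq2), a call lost when any library was left out (adjusted p 0.0565 to 0.226). Neither had an adjusted p under 0.05 by edgeR, 0.149 and 0.199.

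The feedback inhibitors and phosphatases, 19 genes tested, had 1 called higher and 1 lower by DESeq2. Socs2, which restrains growth hormone signalling through STAT5, had 695, 852 and 663 normalized counts after IC and 1475, 1201 and 965 after vehicle. The groups did not overlap, and the log2 fold change was −0.72 (SE 0.171) with adjusted p values of 0.00248 (DESeq2) and 0.108 (edgeR). Without IC replicate 3 the adjusted p of Socs2 was 0.0526. Socs3, which blocks gp130 signalling to STAT3, had 55021, 53165 and 55069 normalized counts after IC and 46527, 45995 and 47746 after vehicle. The groups were tight and did not overlap, and the log2 fold change was 0.22 (SE 0.0640) with adjusted p values of 0.0305 (DESeq2) and 0.267 (edgeR). The Socs3 call was lost without IC replicate 1 (adjusted p 0.116), 2 (0.0518) or 3 (0.0720) and without vehicle replicate 2 (0.0938).

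None of the 11 partners and coactivators tested was called by DESeq2 or edgeR, and 1 had an unadjusted p under 0.05 in either test. That gene was Irf9, the partner of STAT2, with 5078, 4749 and 4951 normalized counts after IC and 3955, 4255 and 4160 after vehicle. The groups did not overlap, and the log2 fold change of 0.26 (SE 0.0825) had adjusted p values of 0.0637 (DESeq2) and 0.214 (edgeR). Irf9 passed the threshold in DESeq2 with total counts as size factors (adjusted p 0.0311) and over genes whose mean normalized count reached 100 (0.0498). Unlike Stat2, Irf9 was not highest in IC replicate 3, where its level was 1.01 times the mean of IC replicates 1 and 2, against 1.40 times for Stat2. Ndufa13, a mitochondrial protein also known to bind STAT3, stood at −0.32 on the log2 scale (DESeq2 adjusted p = 0.741).

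Of 32 interferon-induced genes known as targets of the STAT2 complex, DESeq2 called 6 higher and 0 lower, and edgeR called 0, with 23 at an unadjusted p under 0.05. Log2 fold changes were above 0 for 31 of 32, against 49.6% of all genes tested, and 22 had an unadjusted p under 0.05 by DESeq2. The median log2 fold change of the list was 0.60, against −0.0019 for all genes tested. The list was chosen with earlier results of these data known, so its direction is not independent evidence.

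The 6 called targets were Mx2, Ddx58, Oas1a, Oasl1, Eif2ak2 and Zbp1, genes of antiviral defence. Mx2 had 2878, 2378 and 3321 normalized counts after IC and 2131, 1858 and 1919 after vehicle, a change of 0.54 on the log2 scale (SE 0.127) with adjusted p values of 0.00231 (DESeq2) and 0.0986 (edgeR). Ddx58, which encodes the RNA sensor RIG-I, rose by 0.62 on the log2 scale (DESeq2 adjusted p = 0.00587). Oas1a, an oligoadenylate synthetase, had 316, 241 and 653 normalized counts after IC and 184, 208 and 143 after vehicle, which is 1.18 on the log2 scale (DESeq2 adjusted p = 0.0176). Oasl1, Eif2ak2 and Zbp1 rose by 1.79, 0.52 and 0.72 on the log2 scale, with DESeq2 adjusted p values of 0.0328, 0.0359 and 0.0449. The groups overlapped for Oasl1 and for none of the other 5.

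The targets were highest in the library that was highest in Stat2. Relative to the vehicle mean, the median over the 32 genes of log2(normalized count + 1) was 0.37 in IC replicate 1, 0.13 in IC replicate 2 and 1.07 in IC replicate 3. The vehicle replicates ranged from −0.13 to 0.12, so IC replicate 2 lay barely above the vehicle range. IC replicate 3 was the highest of the 6 libraries for 31 of the 32 targets, against 18.2% of all genes tested and 3 of the 8 STAT and JAK genes, Stat2, Jak1 and Jak2. Mx1, an antiviral GTPase named after its values were seen, had 318, 174 and 2373 normalized counts after IC and 130, 197 and 131 after vehicle, so that IC replicate 3 held 9.64 times the mean of IC replicates 1 and 2. Without IC replicate 3, DESeq2 called 0 of the 32 targets and 7 had an unadjusted p under 0.05. The median log2 fold change was then 0.27, with 31 of 32 above 0.

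Other libraries also changed the number of targets called. Leaving out IC replicate 1 gave 5 called and IC replicate 2 gave 12, and leaving out vehicle replicates 1, 2 and 3 gave 3, 2 and 1. With the replicate number as a block in DESeq2, 3 were called. In the fit with the skeletal muscle term, which cannot be told apart from treatment, the median log2 fold change was 0.15. There 0 were called or had an unadjusted p under 0.05. With the added endothelial term the median was 0.0095, 18 of 32 lay above 0, and 0 were called, with 3 at an unadjusted p under 0.05.

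**Figure D5:**
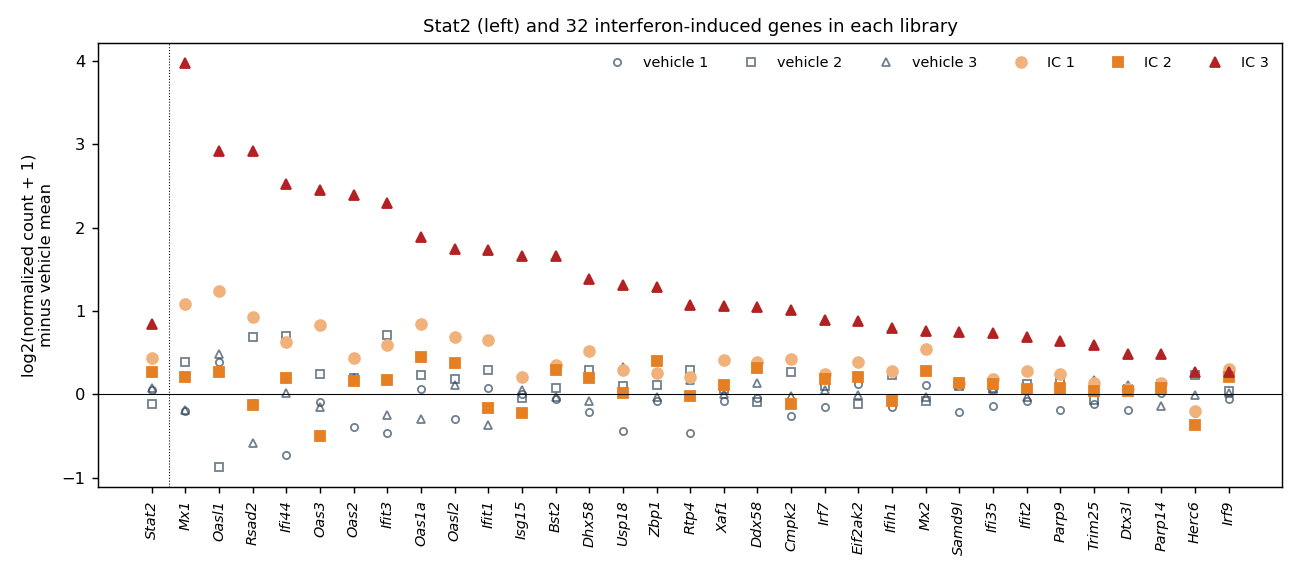
Log2(normalized count + 1) minus the vehicle mean (y axis) for Stat2 at the left and the 32 interferon-induced genes, 1 point per library, with filled symbols for IC and open symbols for vehicle. IC replicate 3 (triangles) is highest for 31 of the 32 genes, with 3.97 for Mx1 and 0.84 for Stat2.

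Of the 23 targets with a promoter in the RefSeq table, 10 held the element core GAAANNGAAA within the 300-base window, or 43.48%. The share was 3.68% among 12282 tested genes with a promoter. The list was made of known interferon targets, so a high share of the interferon element follows from how they were chosen. It describes the list and is no evidence from the expression values. The core was in 10 of 155 promoters of genes called higher (6.45%) and in 9 of 150 promoters of genes called lower (6.0%). Of the 8 STAT and JAK genes, 1 held it, which was Stat2.

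The targets of STAT3, 22 genes tested, had 5 called higher and 1 lower by DESeq2. Their median log2 fold change was 0.21, against −0.0019 for all genes tested, and 19 of 22 lay above 0, against 49.6%. This list and those of STAT5 and STAT6 were also chosen with earlier results known, so their direction is not independent evidence. Besides Il6 and Socs3, the genes called higher were Timp1, an inhibitor of matrix metalloproteinases, Myc, a growth regulator, and Pim1, a kinase of cell survival. Timp1 had 915, 1135 and 1172 normalized counts after IC and 671, 429 and 646 after vehicle, a change of 0.89 on the log2 scale (SE 0.184) with adjusted p values of 0.000272 (DESeq2) and 0.0836 (edgeR). The groups did not overlap, and the Timp1 call was kept whichever library was left out. Myc rose by 0.32 (DESeq2 adjusted p 0.00591, and 0.0834 without vehicle replicate 3) and Pim1 by 0.37 (DESeq2 adjusted p 0.0103). By edgeR their adjusted p values were 0.135 and 0.178. The Pim1 call was lost without IC replicate 2 (0.0660) or 3 (0.113) and without vehicle replicate 2 (0.130) or 3 (0.0931). The gene called lower was Il4ra. With the added endothelial term, DESeq2 called Bcl3, Bcl6, Icam1, Il4ra and Timp1 of this list, and Il6, Socs3, Myc and Pim1 lost their calls. With 1 surrogate variable it called Il4ra, Il6, Myc and Timp1, and Socs3 and Pim1 lost theirs.

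The targets of STAT5, 11 genes tested, had 2 called higher, Pim1 and Socs3, and 2 lower, Socs2 and Lpl, with a median log2 fold change of −0.14. Lpl, lipoprotein lipase, had 20160, 21543 and 24616 normalized counts after IC and 23928, 31555 and 29905 after vehicle. The groups overlapped for Lpl, with IC replicate 3 above vehicle replicate 1, and the value was −0.36 on the log2 scale (DESeq2 adjusted p = 0.0292). It lost its call without IC replicate 1 (0.293) or 2 (0.213) and without vehicle replicate 2 (0.332) or 3 (0.304).

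The targets of STAT6, 11 genes tested, had 0 called higher and 2 lower, Il4ra and Vcam1, with a median log2 fold change of −0.26. Vcam1, an adhesion molecule for leukocytes, had 4078, 3899 and 4046 normalized counts after IC and 4738, 5900 and 5500 after vehicle. The groups did not overlap, and the log2 fold change was −0.42 (SE 0.0974) with adjusted p values of 0.00146 (DESeq2) and 0.0856 (edgeR). Il4ra and Vcam1 were called in all 6 fits that left out 1 library. The lists share genes, Il4ra, Pim1 and Socs3 among them, so their counts are not separate. With the skeletal muscle term, which cannot be told apart from treatment, DESeq2 called 0 genes of any pathway list, Il4ra included (adjusted p 0.156).

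The genes whose pattern over the 6 libraries was most like that of Stat2 were found by the root-mean-square difference between centred log2(normalized count + 1) values, over the 13434 genes whose mean normalized count reached 100. The median gene differed from Stat2 by 0.345 on this scale. The closest 5 were Nsdhl, an enzyme of cholesterol synthesis, at 0.0507, Eif2ak2, the RNA-activated kinase PKR, at 0.0558, Sp110, a nuclear body protein, at 0.0729, Il6 at 0.0757 and Mx2 at 0.0801. Nsdhl had 602, 516 and 775 normalized counts after IC and 426, 416 and 479 after vehicle, with an adjusted p of 0.140 by DESeq2. In each of the 5 genes, as in Stat2, IC replicate 3 was the highest library, which follows from choosing them by likeness to Stat2. The points share the same 6 libraries and their depth, and the likeness is a description.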

How the data were processed

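Total RNA of sorted synovial fibroblasts was sequenced in 6 libraries, split evenly between IC (n = 3) and vehicle (n = 3). The deposited table holds raw read counts by gene symbol. To make it, the authors trimmed reads (Trim Galore), aligned them to mm10 (HISAT2) and assigned them to genes (featureCounts). Versions, gene annotation and use of strand are not given in the sources used here. The labels name an Illumina stranded total RNA kit and the study's methods a SMARTer stranded kit, and the counts do not show which was used. The methods also name sva for batch effects, without details, and the labels give no batch.

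A gene was tested when 3 or more libraries had 10 or more counts, which gave 19925 genes and left out 4423. IC was compared with vehicle by the DESeq2 (version 1.42.0) Wald test with default settings, as the study's methods name it, and by edgeR's (version 4.0.16) quasi-likelihood test, with Benjamini-Hochberg adjustment over all genes. DESeq2 gave no adjusted p to 3870 genes. Alternatives included limma-voom (version 3.58.1), other scalings and filters, a block for replicate number, a fit with 1 surrogate variable (sva, version 3.50.0), marker scores as terms and each library left out. Leaving out a library refitted the count filter. The tests were checked on simulated data. When 200 genes were changed, the share of false calls exceeded the nominal rate, far more for DESeq2 than for edgeR. At a 1.5-fold change, 24.5% of DESeq2 calls and 8.51% of edgeR calls were false. With a 2-fold change these shares were 21.4% and 5.65%. DESeq2 also missed fewer true changes: at 1.5-fold it found 55.25% of them, while edgeR found 42.25%. In simulated data with 0 genes changed, DESeq2 called 5 genes and edgeR 0. These shares describe the simulated counts, and the false share among the real calls was not measured. Libraries of a group differed by more than sampling noise and each counted as 1 replicate.

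Named genes were the 9 chosen, the called genes of each pathway list (up to 6 by smallest adjusted p, otherwise the 2 smallest) and the 5 genes most like a called member. The genes and lists were chosen with earlier results of these data known. Positions are from GENCODE M21 and promoters from RefSeq, both on GRCm38, the assembly mm10 names. Of 19925 symbols, 19631 matched GENCODE and all 9 members matched the promoter table.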

Additional observations from a re-analysis of the deposited data

How the results depend on the processing

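DESeq2 called 419 genes, edgeR's quasi-likelihood test 37, limma-voom 62, edgeR with the replicate block 22 and DESeq2 with a muscle marker term 19, of which 37, 61, 19 and 18 were among the 419. In these 4 fits 0 of the 8 STAT and JAK genes were called. Leaving out 1 library gave 281 to 677 genes and 0 to 2 of the 8, with the most in both cases without vehicle replicate 1 and no STAT or JAK gene without vehicle replicate 2. No pairing by replicate number was detected: the deviations of same-numbered IC and vehicle libraries correlated at −0.0918, −0.164 and 0.0250 over 13435 genes. Libraries with different numbers were not compared in this way, so pairing is not excluded. A replicate block in DESeq2 left 320 genes, 272 of them among the 419, and Stat2 kept its call (log2 fold change 0.51, adjusted p 0.000299). The edgeR likelihood-ratio test and the endothelial score were chosen after seeing the data and gave 336 and 468 genes.

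Stat2 kept its direction in all 19 alternatives and its call in 13. Apart from the edgeR likelihood-ratio test, those 13 were DESeq2 fits to all or most of the same libraries, so they are not separate checks. In the 6 others its adjusted p was 0.137 (edgeR), 0.122 (limma-voom), 0.148 (edgeR with the block), 0.9998 (muscle score), 0.244 (endothelial score) and 0.0674 (without vehicle replicate 2). Jak2 turned from 0.06 to −0.058 with the endothelial score. The log2 difference in the Jak2 to Jak1 ratio, 0.0019, ranged from −0.030 to 0.052 when 1 library was left out, and was −0.016 without vehicle replicate 1. The cause was not tested. With the union of exons as length, levels per kilobase moved by more than their SD for 6 of the 8 genes. With 3 libraries per group the spread between libraries sets the precision.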
